A study of Homo sapiens with 6 samples.

Results

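Translation initiation and elongation factors are the proteins that load the ribosome onto messenger RNA, set it at the start codon and move it along the coding sequence. The set comprised every gene whose symbol begins with EIF1 to EIF6 or EEF1, or is EEF2, leaving out the eIF2 kinases EIF2AK1 to EIF2AK4 and pseudogenes, and counting only probe sets assigned to 1 gene. The rule found 56 genes with 185 probe sets, of 18132 genes in all. All 56 are called factors below, although they include genes for inhibitors and modifiers of factors, such as EIF4EBP1 and EEF1AKMT2. They were measured in T24 cells, a human bladder carcinoma line, on Affymetrix expression arrays, in 2 groups. The first group holds 3 arrays of T24 cells treated for 48 hours with 10 µg/ml MAP30, and the second 3 arrays of control T24 cells. What the control cells received and when they were collected are not given in the sources used here. All cells grew in DMEM with fetal bovine serum.

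MAP30, from bitter melon (Momordica charantia), belongs to the ribosome-inactivating proteins, enzymes that remove an adenine from the RNA of the large ribosomal subunit. The base lies in the loop that the elongation factors eEF1A and eEF2 contact on the ribosome. As background, initiation starts when eIF2 brings the initiator tRNA to the small subunit together with eIF1, eIF1A, eIF3 and eIF5. The eIF4 proteins bind the mRNA cap and unwind the leader, and 4E-BP proteins block them by holding eIF4E. eIF2B recharges eIF2 with GTP, and phosphorylated eIF2 blocks it. In elongation eEF1A delivers charged tRNAs and eEF2 translocates the ribosome.

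In the deposited log2 values each probe set was centred on its median over the 6 arrays, so a value gives an array's position relative to the other arrays and no level. No factor can be called abundant or scarce, the T24 identity cannot be checked by the absence of markers, and values of different genes compare only in their differences between groups. Probe sets of the same gene were averaged. The labels do not say whether replicates came from separate cultures, and p-values then describe the spread of these arrays alone, possibly a technical one. In bulk RNA, fewer cells of a kind and less RNA per cell cannot be told apart. The array number limits the precision. Arrays of different groups differed with an SD over all genes of 0.617 to 0.621 (log2), and arrays of the same group with 0.105 to 0.121. For ACTB and GAPDH, control probe sets near the 5' end were subtracted from those near the 3' end. ACTB gave log2 differences of 0.079, 0.084 and 0.071 in MAP30 arrays, against -0.059, -0.100 and -0.080 in control arrays. GAPDH gave 0.015, 0.030 and 0.016 in MAP30 arrays, against -0.025, -0.0077 and -0.034 in control arrays. The shift with MAP30 was 0.16 for ACTB and 0.043 for GAPDH. For each the exact two-sided permutation p was 0.1, the smallest that 3 against 3 allows. The part of these shifts in the results was not tested. Spiked-in hybridization controls shifted with MAP30 by a mean of 0.21 over 18 probe sets, and poly-A controls shifted by -0.16 over 24. Centring the arrays on these spike-ins moves the all-gene median (log2 fold change) to -0.23 or 0.14, against -0.02 as deposited. By limma at an adjusted p under 0.05, 26.9% of all genes were higher as deposited and 30.6% lower. Centred on hybridization controls these shares were 17% and 63.7%, and centred on poly-A controls 49.1% and 20.7%. The marker counts that follow use the same threshold and stand beside these shares. Of 11 urothelial and carcinoma markers 3 were higher and 2 lower; centred on hybridization controls, 3 were higher and 8 lower, and centred on poly-A controls 6 and 2. Of 9 leukocyte markers 4 were higher and 1 lower; centred on hybridization controls, 3 were higher and 5 lower, and centred on poly-A controls 8 and 0. Of 10 fibroblast and endothelial markers 2 were higher and 0 lower; centred on hybridization controls, 0 were higher and 8 lower, and centred on poly-A controls 9 and 0. The 2 higher calls of the last list dropped to between 0 and 1 when any 1 array was left out. The pan-leukocyte marker PTPRC did not pass at 0.028, while LCP1 (1.40) and ITGAM (2.76) rose, and the part of these markers in the results was not tested.

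Of the 56 factors 21 were higher and 21 lower with MAP30 by limma at an adjusted p under 0.05, and 14 did not pass. That is 75.0% called, where 57.5% of all genes tested were called, 26.9% higher and 30.6% lower. The median log2 fold change was -0.0076 over the factors and -0.02 over all genes, and the median size of the change, whatever its sign, was 0.30 and 0.19. All 3 MAP30 arrays lay above all 3 control arrays in 22 factors (29.1% of all genes) and below in 24 (33.6% of all genes); 10 factors overlapped, where 62.6% of all genes did not. At least a 1.5-fold change was reached by 9 factors that rose and 4 that fell, against 11.2% and 10.9% of all genes. The 4 were the 4E-BP genes EIF4EBP2 and EIF4EBP1, EIF4E2 for a repressive cap-binding protein, and the eEF1A methyltransferase gene EEF1AKMT2. Centred on hybridization controls, 13 factors were higher and 33 lower, against 17% and 63.7% of all genes. Centred on poly-A controls, 30 were higher and 15 lower, against 49.1% and 20.7%. Under both spike-in centrings 13 of the higher and 15 of the lower calls kept their direction and their call, and these 28 include each factor described below as having risen or fallen, unless stated otherwise.

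**Figure D1:**
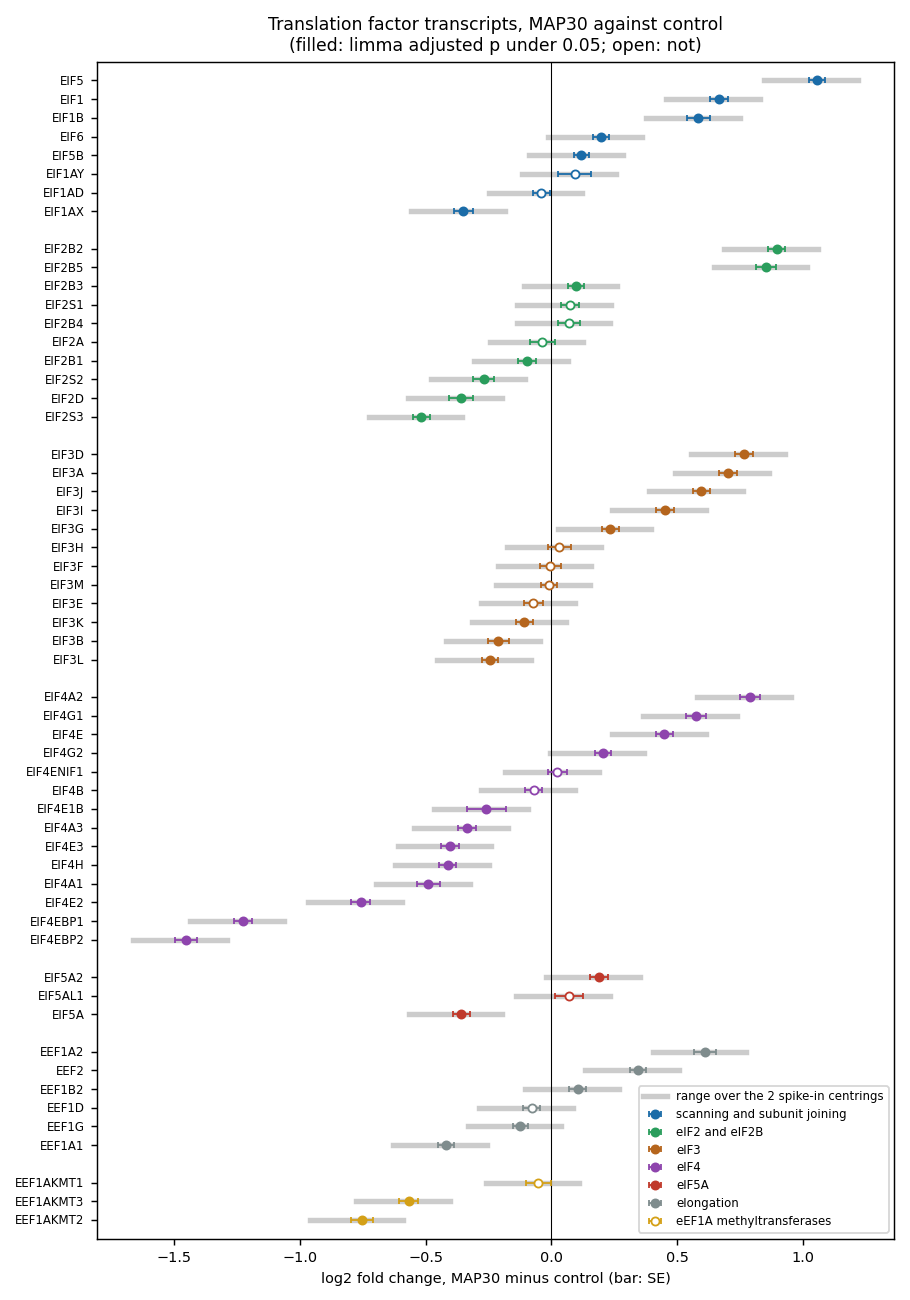
Log2 fold change (MAP30 minus control) of the 56 factors by role, with the standard error as a bar; filled points passed limma's adjusted p of 0.05 and open points did not. The grey band spans the values with arrays centred on hybridization or on poly-A controls. EIF4EBP2 and EIF4EBP1 lie furthest to the left at -1.45 and -1.23, and EIF5 furthest to the right at 1.05.

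Many transcripts of the translation machinery begin with a C followed by a run of pyrimidines at the cap. This terminal oligopyrimidine (TOP) start is a feature through which mTOR controls their translation, by the cap-binding protein LARP1. RefSeq start windows on GRCh38.p14 were found for 45 of the 56 factors, and the other 11 are not used here. A window spans 300 bases, of which 250 lie before and 50 after an annotated start; a gene can have several. A C as the first transcribed base followed by at least 4 pyrimidines was searched on the transcribed strand. It was present at a start of 12 factors (26.7% of 45). Of all 27305 genes with a window 5.14% had it (4.07% of all 35116 windows). This all-gene background, also used for the motifs below, includes genes not measured here, whereas the 45 are measured protein-coding genes. The following windows show 25 bases on each side of the start for 3 factors that rose, 2 that fell and 1 that did not pass, with the pyrimidine run in capitals.
EIF4A2: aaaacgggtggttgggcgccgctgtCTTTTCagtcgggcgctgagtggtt
EIF3D: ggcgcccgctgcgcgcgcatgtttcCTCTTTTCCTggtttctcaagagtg
EEF2: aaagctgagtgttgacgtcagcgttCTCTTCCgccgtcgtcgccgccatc
EEF1A1: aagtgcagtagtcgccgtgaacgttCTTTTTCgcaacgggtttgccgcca
EIF2S3: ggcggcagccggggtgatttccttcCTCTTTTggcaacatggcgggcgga
EIF4B: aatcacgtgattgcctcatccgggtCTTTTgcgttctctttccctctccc
They lie on GRCh38.p14, with EIF4A2 at chr3:186783552-186783601 on the plus strand, EIF3D at chr22:36529142-36529191 on the minus strand, EEF2 at chr19:3985439-3985488 on the minus strand, EEF1A1 at chr6:73521008-73521057 on the minus strand, EIF2S3 at chrX:24054931-24054980 on the plus strand and EIF4B at chr12:53006431-53006480 on the plus strand.

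Transcripts with this start went both ways. EIF4A2 (0.79), EIF3D (0.76), EEF2 (0.34) and EEF1B2 (0.10) were higher as log2 fold changes. EIF2S3 (-0.52), EEF1A1 (-0.42), EIF2D (-0.36) and EIF3K (-0.11) were lower. EIF4B (-0.071), EIF2A (-0.037), EIF3M (-0.0099) and EIF3F (-0.0053) did not pass. The calls of EEF2, EEF1B2 and EIF3K were lost under 1 of the spike-in centrings. The median of the 12 was -0.024. A further motif is the E-box CACGTG, which reads the same on both strands and is bound by MYC and related factors. It was found in the windows of 10 of the 45 factors (22.2%) and of 8.77% of all genes (7.26% of all windows). EIF4E and EIF4G1, which encode the cap-binding protein and its scaffold, each hold 2, as does EIF5A2, and the other 7 factors hold 1. EIF1B, with 1, rose by 0.58. The stretches of 4 cap-complex and related genes follow, with the E-boxes in capitals.
EIF4E: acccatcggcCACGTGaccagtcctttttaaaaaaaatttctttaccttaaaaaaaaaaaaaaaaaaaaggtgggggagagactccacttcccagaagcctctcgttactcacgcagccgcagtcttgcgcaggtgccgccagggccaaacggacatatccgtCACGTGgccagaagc
EIF4G1: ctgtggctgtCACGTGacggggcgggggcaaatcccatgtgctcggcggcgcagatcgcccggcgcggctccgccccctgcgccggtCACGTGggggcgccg
EIF4A3: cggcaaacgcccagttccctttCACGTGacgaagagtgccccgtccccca
EIF4H: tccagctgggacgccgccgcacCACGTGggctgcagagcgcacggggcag
On GRCh38.p14 they are EIF4E at chr4:98929191-98929368 on the minus strand, EIF4G1 at chr3:184314452-184314553 on the plus strand, EIF4A3 at chr17:80147222-80147271 on the minus strand and EIF4H at chr7:74174135-74174184 on the plus strand. The first E-box of EIF4E begins 225 bases before the start and the second 72 bases before it. EIF4E (0.45), EIF4G1 (0.57) and EIF1B rose, EIF4A3 (-0.34) and EIF4H (-0.41) fell, and EIF3F and EIF4B did not pass. EIF5A2 (0.19) and EIF2B3 (0.10) were higher and EIF3K (-0.11) lower as deposited. These 3 calls were lost under a spike-in centring, with EIF5A2 at -0.021 and EIF2B3 at -0.11 on hybridization controls and EIF3K at 0.057 on poly-A controls. The composite element TGATGNAA, bound by ATF4 with its partners and searched on both strands, was found in the windows of 1 factor, EIF4E3, and of 4.46% of all genes (3.62% of all windows). Letters in a window describe the sequence and show no binding.

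Among the factors for scanning and subunit joining 5 rose, 1 fell and 2 did not pass, with a median log2 fold change of 0.16. Among all genes 26.9% were higher and 30.6% lower. Centred on hybridization controls, 3 of these factors were higher and 2 lower, against 17% and 63.7% of all genes. Centred on poly-A controls, 7 were higher and 1 lower, against 49.1% and 20.7%. EIF5, whose product makes eIF2 hydrolyse its GTP once the start codon is found, stood at 0.52, 0.55 and 0.52 in MAP30 arrays, against -0.50, -0.54 and -0.54 in control arrays. All MAP30 arrays lay above all control arrays by about the same distance. EIF5 rose 2.08-fold (log2 fold change 1.05 ± 0.03 SE, 3 arrays in each group; limma adjusted p = 1.24e-07) and was the largest rise among the 56 factors. All 7 of its probe sets were higher, with values from 0.68 to 1.48. EIF1 holds the scanning ribosome in an open form and rejects poor start codons. Its values were 0.33, 0.38 and 0.30 in MAP30 arrays, against -0.34, -0.33 and -0.32 in control arrays. EIF1 rose 1.59-fold (0.67 ± 0.04 SE), with 4 of 4 probe sets higher. Its close relative EIF1B was at 0.25, 0.35 and 0.27 in MAP30 arrays, against -0.29, -0.25 and -0.35 in control arrays, and rose 1.5-fold (0.58 ± 0.04 SE).

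EIF1AX, which encodes eIF1A, the partner of eIF1 in scanning, went the other way. It was at -0.21, -0.14 and -0.21 in MAP30 arrays, against 0.15, 0.19 and 0.15 in control arrays, with a log2 fold change of -0.35 ± 0.04 SE, and both probe sets were lower. EIF5B joins the large subunit at the start codon. Its values were 0.045, 0.076 and 0.067 in MAP30 arrays, against -0.047, -0.048 and -0.074 in control arrays, with no overlap between groups. The change of EIF5B was 0.12 (limma adjusted p = 0.0133) and turned to -0.090 with hybridization-control centring. EIF6 keeps free large subunits from joining small ones. EIF6 was at 0.084, 0.12 and 0.10 in MAP30 arrays, against -0.080, -0.090 and -0.11 in control arrays, a change of 0.20, which with hybridization-control centring was -0.013. EIF1AY (0.092) and EIF1AD (-0.041), which encodes a protein with an eIF1A-like domain, did not pass.

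The eIF2 and eIF2B group of 10 genes also counts the alternative initiation factors EIF2A and EIF2D. Of the 10 genes 3 rose, 4 fell and 3 did not pass, with a median of 0.016. Among all genes 26.9% were higher and 30.6% lower. Centred on hybridization controls, 2 of the 10 were higher and 6 lower, against 17% and 63.7% of all genes. Centred on poly-A controls, 5 were higher and 3 lower, against 49.1% and 20.7%. The eIF2B complex is the exchange factor that reloads eIF2 with GTP, and its subunits parted. EIF2B2, the beta subunit, stood at 0.43, 0.43 and 0.47 in MAP30 arrays, against -0.44, -0.45 and -0.46 in control arrays. It rose 1.86-fold (0.89 ± 0.03 SE; limma adjusted p = 2.65e-07). EIF2B5, the catalytic epsilon subunit, was at 0.41, 0.47 and 0.39 in MAP30 arrays, against -0.43, -0.39 and -0.46 in control arrays, and rose 1.81-fold (0.85 ± 0.04 SE), on 1 probe set. Both lay far above control in every MAP30 array. The gamma subunit gene EIF2B3 (0.10) and the alpha subunit gene EIF2B1 (-0.10) passed narrowly. The call of EIF2B3, which has 1 probe set, was lost when any 1 array was left out and in the fit over probe sets, and that of EIF2B1 was lost when any 1 array was left out and under median centring or quantile normalization. Under hybridization-control centring EIF2B3 was -0.11, and under poly-A-control centring EIF2B1 was 0.066. The delta subunit gene EIF2B4 (0.070) did not pass.

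The genes of the eIF2 trimer differed in their change. EIF2S3, the gamma subunit that binds GTP and the initiator tRNA, was at -0.25, -0.25 and -0.31 in MAP30 arrays, against 0.25, 0.24 and 0.25 in control arrays. It was 1.43-fold lower (-0.52 ± 0.03 SE; limma adjusted p = 5.74e-06), with 4 of 4 probe sets lower. EIF2S2, the beta subunit, was at -0.15, -0.12 and -0.10 in MAP30 arrays, against 0.17, 0.19 and 0.081 in control arrays, a change of -0.27 ± 0.04 SE. EIF2S1, the alpha subunit that the eIF2 kinases phosphorylate, was at 0.054, 0.054 and -0.0017 in MAP30 arrays, against -0.049, -0.0073 and -0.059 in control arrays. Its change of 0.073 did not pass (limma adjusted p = 0.117) and came from probe sets that ran from -0.21 to 0.40, 2 higher, 1 lower and 2 not passing. Centred on hybridization controls EIF2S1 stood at -0.14, and centred on poly-A controls at 0.24. EIF2D, which can bring tRNA to the ribosome without GTP, was at -0.15, -0.27 and -0.16 in MAP30 arrays, against 0.23, 0.15 and 0.12 in control arrays, a change of -0.36 ± 0.05 SE carried by 1 of 2 probe sets. EIF2A (-0.037), another alternative initiation factor, did not pass: 1 probe set was higher at 0.33 and the other lower at -0.40.

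The subunits of eIF3, the largest initiation factor and the scaffold of the small subunit, changed to different degrees. Of 12 measured genes 5 were higher, 3 lower and 4 did not pass, with a median of 0.013. Among all genes 26.9% were higher and 30.6% lower. Centred on hybridization controls, 4 of the 12 were higher and 7 lower, against 17% and 63.7% of all genes. Centred on poly-A controls, 8 were higher and 0 lower, against 49.1% and 20.7%. EIF3D, a subunit that can itself bind the cap, stood at 0.36, 0.40 and 0.38 in MAP30 arrays, against -0.37, -0.36 and -0.42 in control arrays, and rose 1.7-fold (0.76 ± 0.03 SE). EIF3A, the largest subunit, was at 0.36, 0.37 and 0.32 in MAP30 arrays, against -0.32, -0.38 and -0.36 in control arrays, and rose 1.63-fold (0.70 ± 0.03 SE). EIF3J, a loosely bound subunit, was at 0.33, 0.30 and 0.27 in MAP30 arrays, against -0.28, -0.28 and -0.33 in control arrays, and rose 1.51-fold (0.60 ± 0.03 SE). In these 3 genes the MAP30 and control arrays were well apart, and both probe sets of each were higher. EIF3I was at 0.20, 0.24 and 0.26 in MAP30 arrays, against -0.20, -0.22 and -0.24 in control arrays, and rose 1.37-fold (0.45 ± 0.03 SE), on 1 probe set. This probe set is of class _x_at, whose probes can match other sequences. EIF3I belongs to the peripheral module of eIF3 with EIF3B and EIF3G.

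The other eIF3 subunits changed less. EIF3G (0.23) was higher and EIF3L (-0.25), EIF3B (-0.21) and EIF3K (-0.11) were lower. EIF3G lost its call when arrays were centred on hybridization controls (0.024). Centred on poly-A controls, EIF3L stood at -0.082, EIF3B at -0.047 and EIF3K at 0.057, and none of them passed. The call of EIF3K was also lost without control replicate 1 or 2, or MAP30 replicate 1 or 3. EIF3E was at -0.015, -0.0061 and -0.10 in MAP30 arrays, against 0.049, 0.050 and -0.0021 in control arrays, and its change of -0.072 did not pass although the groups did not overlap. EIF3H (0.031), EIF3F (-0.0053) and EIF3M (-0.0099) did not pass, and in each the arrays of both groups overlapped. The peripheral module held EIF3I and EIF3G higher and EIF3B lower.

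The eIF4 group held the largest falls. Of 14 genes 4 were higher, 8 lower and 2 did not pass, with a median of -0.30. Among all genes 26.9% were higher and 30.6% lower. Centred on hybridization controls, 3 of the 14 were higher and 10 lower, against 17% and 63.7% of all genes. Centred on poly-A controls, 5 were higher and 7 lower, against 49.1% and 20.7%. Both measured 4E-BP genes fell. EIF4EBP2 stood at -0.73, -0.77 and -0.65 in MAP30 arrays, against 0.78, 0.73 and 0.69 in control arrays. It was 2.74-fold lower (-1.45 ± 0.04 SE; limma adjusted p = 1.16e-07), which ranked 192 among the 5553 genes that fell, and its 5 probe sets ran from -1.96 to -0.98. EIF4EBP1, a target gene of ATF4, was at -0.59, -0.68 and -0.59 in MAP30 arrays, against 0.61, 0.60 and 0.61 in control arrays, and was 2.34-fold lower (-1.23 ± 0.04 SE), with 3 of 3 probe sets lower. EIF4E, the cap-binding protein that the 4E-BPs hold, was at 0.26, 0.22 and 0.22 in MAP30 arrays, against -0.20, -0.25 and -0.19 in control arrays. EIF4E rose 1.36-fold (0.45 ± 0.03 SE), with 6 probe sets higher and 1 lower.

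The relatives of EIF4E went the opposite way. EIF4E2, which encodes the repressive cap-binding protein 4EHP, was at -0.38, -0.46 and -0.41 in MAP30 arrays, against 0.38, 0.32 and 0.32 in control arrays. It was 1.69-fold lower (-0.76 ± 0.04 SE; limma adjusted p = 1.16e-06), with 4 of 4 probe sets lower. EIF4E3 (-0.40) was lower in 3 of 5 probe sets, and EIF4E1B (-0.26), known as a germ cell form, was lower on 1 probe set with a call that poly-A-control centring removed at -0.095. It was also lost without control replicate 1, MAP30 replicate 1 or MAP30 replicate 3. EIF4ENIF1 (0.023), the transporter that carries eIF4E into the nucleus, did not pass.

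The helicase genes of the cap complex divided. EIF4A1, the main RNA helicase of initiation, was at -0.32, -0.31 and -0.18 in MAP30 arrays, against 0.21, 0.22 and 0.23 in control arrays, and was 1.4-fold lower (-0.49 ± 0.05 SE), with 4 of 4 probe sets lower. EIF4A2, its close paralogue, was at 0.32, 0.37 and 0.45 in MAP30 arrays, against -0.41, -0.41 and -0.41 in control arrays, and rose 1.73-fold (0.79 ± 0.04 SE). The probe sets of EIF4A2 disagreed: 2 were higher at 1.29 and 2.26, 1 was lower at -0.30 and 1 did not pass. EIF4A3 (-0.34), a helicase of the exon junction complex rather than of initiation, fell, as did EIF4H (-0.41), a cofactor of the helicase. EIF4B (-0.071), a related cofactor, did not pass.

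The scaffolds rose. EIF4G1, which ties the cap-binding protein to the helicase and eIF3, was at 0.24, 0.31 and 0.30 in MAP30 arrays, against -0.27, -0.26 and -0.34 in control arrays. It rose 1.49-fold (0.57 ± 0.04 SE), with 2 probe sets higher and 1 not passing. EIF4G2, a scaffold without the eIF4E site that acts in cap-independent initiation, rose by 0.20 in 4 of 4 probe sets, but was -0.0045 with hybridization-control centring. EIF4G3 and EIF4EBP3 are not analysed here.

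**Figure D2:**
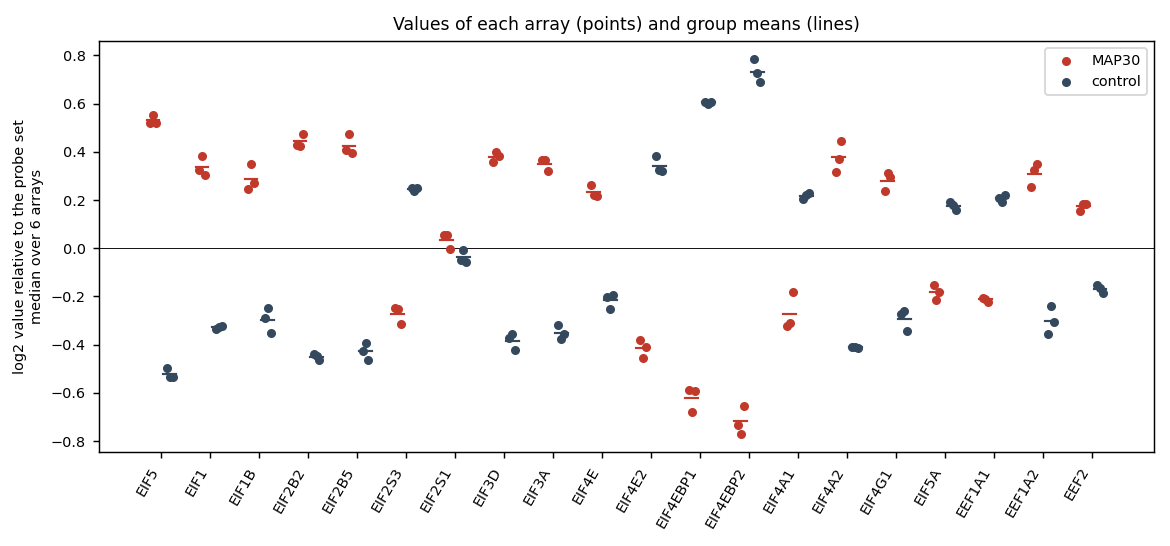
Values of each array for 20 factors, as log2 values relative to the median over the 6 arrays; red points are MAP30 arrays, dark points control arrays, and short lines the group means. The groups lie apart in each of these 20 chosen genes. Of the 56 factors 10 overlapped, and in 62.6% of all genes the groups did not overlap. Among the 20 they come closest in EIF2S1, where the lowest MAP30 array at -0.0017 stands just above the highest control array at -0.0073.

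Among the elongation factors 3 of 6 rose, 2 fell and 1 did not pass, with a median of 0.013. Of all genes 26.9% were higher and 30.6% lower. Centred on hybridization controls, 1 of the 6 was higher and 3 lower, against 17% and 63.7% of all genes. Centred on poly-A controls, 3 were higher and 1 lower, against 49.1% and 20.7%. EEF1A1, the ubiquitous form of eEF1A, was at -0.21, -0.21 and -0.22 in MAP30 arrays, against 0.21, 0.19 and 0.22 in control arrays, and was 1.34-fold lower (-0.42 ± 0.03 SE; limma adjusted p = 1.06e-05). Of its 6 probe sets 3 were lower, at -0.99, -0.74 and -0.70, and 3 did not pass. Those that did not pass are all of class _x_at, whose probes can match other sequences, as is 1 of the lower ones. EEF1A1 has many processed pseudogenes of near-identical sequence, whose part in these values was not tested, and the size of its change is uncertain. EEF1A2, the form known from muscle and neurons, was at 0.26, 0.32 and 0.35 in MAP30 arrays, against -0.35, -0.24 and -0.31 in control arrays, and rose 1.53-fold (0.61 ± 0.04 SE) in both probe sets. EEF2, the translocase, was at 0.16, 0.18 and 0.18 in MAP30 arrays, against -0.15, -0.17 and -0.19 in control arrays, and rose 1.27-fold (0.34 ± 0.03 SE) in 8 of 8 probe sets. With hybridization-control centring EEF2 was 0.13 (limma adjusted p = 0.0504).

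As means over probe sets, the subunits of eEF1B, the exchange factor of eEF1A, moved little. EEF1G and EEF1B2 have only probe sets of classes _s_at and _x_at. EEF1G was at -0.064, -0.055 and -0.063 in MAP30 arrays, against 0.072, 0.059 and 0.060 in control arrays, a change of -0.12 that was 0.039 with poly-A-control centring. EEF1D was at -0.050, -0.027 and -0.015 in MAP30 arrays, against 0.080, 0.045 and 0.018 in control arrays, and did not pass at -0.078 (limma adjusted p = 0.0862). Of its 4 probe sets, 1 of class _at was lower at -0.30, and 3 of class _x_at did not pass. The size of its change is therefore uncertain. EEF1B2 was higher by 0.10, but stood at -0.11 with hybridization-control centring, and its call was lost when any 1 array other than control replicate 2 was left out.

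The eIF5A protein, which carries the modified residue hypusine and helps ribosomes through difficult peptide bonds, has 2 forms. EIF5A was at -0.15, -0.22 and -0.18 in MAP30 arrays, against 0.19, 0.18 and 0.16 in control arrays, and was 1.28-fold lower (-0.36 ± 0.03 SE), in 6 of 6 probe sets. The probe set of class _at stood at -0.47, and the others are of class _x_at, whose probes can match other sequences. EIF5A2, a form often amplified in tumours, was at 0.056, 0.10 and 0.073 in MAP30 arrays, against -0.075, -0.15 and -0.10 in control arrays. Its change of 0.19 combined 2 probe sets higher, 1 lower and 1 not passing, from -0.38 to 0.65, and was -0.021 with hybridization-control centring. EIF5AL1 (0.069), nearly identical to EIF5A in sequence, did not pass. Of the methyltransferases that modify lysines of eEF1A, EEF1AKMT2 was at -0.39, -0.35 and -0.47 in MAP30 arrays, against 0.38, 0.33 and 0.34 in control arrays, and was 1.68-fold lower (-0.75 ± 0.04 SE). EEF1AKMT3 was at -0.28, -0.35 and -0.27 in MAP30 arrays, against 0.30, 0.25 and 0.25 in control arrays, and was 1.48-fold lower (-0.57 ± 0.04 SE), and EEF1AKMT1 (-0.053) did not pass.

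Pairs of factors were compared within each array, where the scaling of an array drops out. Each difference is between 2 centred values, so only its change between groups has meaning. In all 18 pairs measured the groups did not overlap (62.6% of single genes did not), and the exact two-sided permutation p of each was 0.1, the smallest that 3 arrays against 3 allow, so no pair can pass 0.05. The list of pairs was drawn up with earlier results of these data known. EIF4EBP2 minus EIF4E was -0.995, -0.99 and -0.87 in MAP30 arrays, against 0.99, 0.98 and 0.88 in control arrays. The ratio of EIF4EBP2 to EIF4E was 3.73-fold lower with MAP30 (-1.90 on the log2 scale), and that of EIF4EBP1 to EIF4E 3.19-fold lower. EIF4A1 minus EIF4A2 was -0.64, -0.68 and -0.63 in MAP30 arrays, against 0.61, 0.63 and 0.64 in control arrays, a ratio 2.42-fold lower.

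EIF4E minus EIF4E2 was 0.64, 0.68 and 0.62 in MAP30 arrays, against -0.58, -0.57 and -0.51 in control arrays, a ratio 2.31-fold higher with MAP30. EEF1A1 minus EEF1A2 was -0.46, -0.53 and -0.57 in MAP30 arrays, against 0.56, 0.43 and 0.53 in control arrays, a ratio 2.04-fold lower, and EEF1A1 against EEF2 was 1.7-fold lower. Within eIF2 the ratio of EIF2S1 to EIF2S3 was 1.51-fold higher and that of EIF2S2 to EIF2S3 1.19-fold higher. EIF5 against EIF5B was 1.91-fold higher, and EIF5A against EIF5A2 1.46-fold lower. The smallest shift was EIF1 minus EIF1B (0.081), where both genes rose. EIF4EBP1 minus EIF4EBP2 was 0.23 but -0.15 when the _x_at and _s_at probe sets were left out, so the order of these 2 falls depends on the probe sets.

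**Figure D3:**
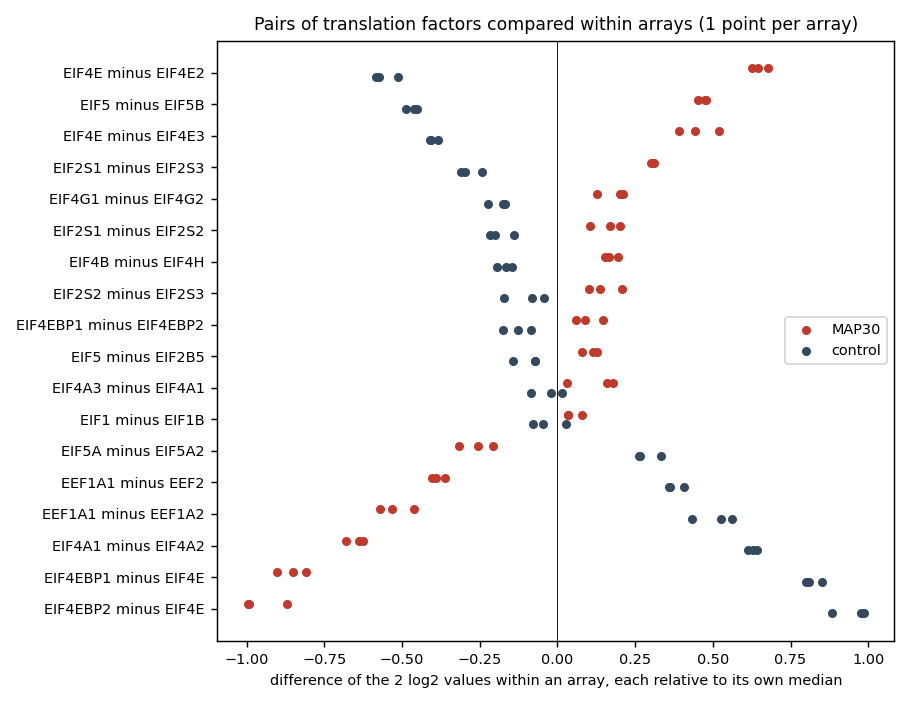
Differences between 2 factors within an array (log2 scale, each value relative to its own median), 1 point per array, red for MAP30 and dark for control, ordered by the change. EIF4EBP2 minus EIF4E lies at the bottom with a change of -1.90 and EIF4E minus EIF4E2 at the top with 1.21; in no pair do the groups overlap.

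Several factors have probe sets that differ. Of the 48 factors with more than 1 probe set, 23 had all of them called in the same direction and 8 had some called higher and some lower, where 7.24% of all genes with more than 1 probe set had both. These 8 were EIF4A2, EIF4E, EIF5A2, EIF5B, EIF2S1, EIF2A, EIF1AD and EIF3M. Of the 185 probe sets 63 were higher, 72 lower and 50 did not pass, when adjusted over all 44988 probe sets with 1 gene, of which 56.8% were called. In EIF4E 1 probe set reached 1.54 and the other higher ones ran from 0.20 to 0.65. Which transcript form each probe set reads is not given in the files. A further 23 probe sets list a factor together with another gene and were left out.

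**Figure D4:**
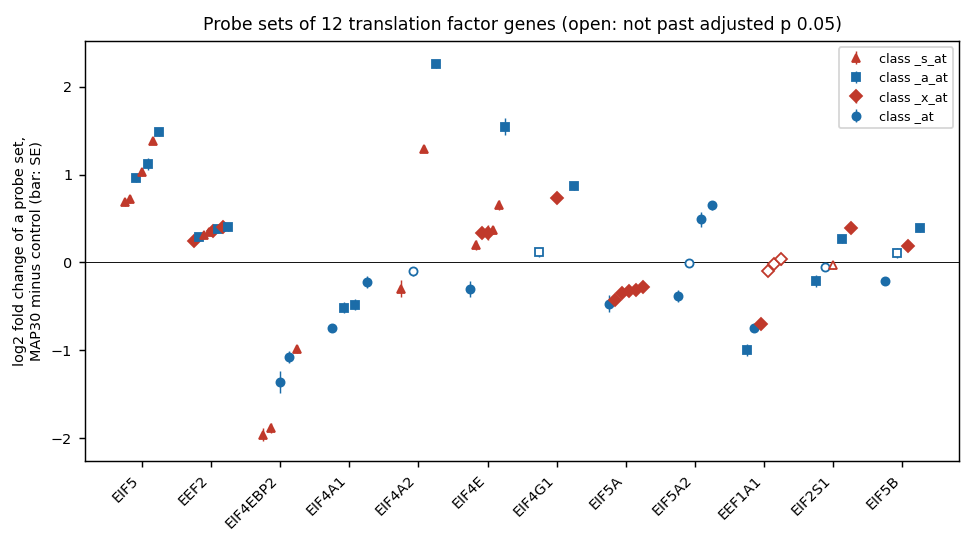
Log2 fold change (MAP30 minus control) of each probe set of 12 factors, with its standard error; blue marks classes _at and _a_at, red marks classes _s_at and _x_at, and open symbols did not pass. The probe sets of EIF5, EEF2, EIF4EBP2, EIF4A1 and EIF5A lie on 1 side of 0, while those of EIF4A2 run from -0.30 to 2.26.

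Enzymes that switch these factors on and off were also measured. Of 15 kinases, phosphatase subunits and mTOR complex genes acting on translation factors 8 rose and 7 fell, with a median of 0.15. Among all genes 57.5% were called, 26.9% higher and 30.6% lower. Centred on hybridization controls, 3 of the 15 were higher and 7 lower, against 17% and 63.7% of all genes. Centred on poly-A controls, 8 were higher and 7 lower, against 49.1% and 20.7%. PPP1R15A, the inducible subunit that directs phosphatase to eIF2, was at 1.83, 1.81 and 1.86 in MAP30 arrays, against -1.86, -1.91 and -1.81 in control arrays, and rose 13-fold. Its constitutive counterpart PPP1R15B (1.11) and the eIF2 kinase gene EIF2AK3 (0.87), which encodes PERK, rose. EIF2AK2 (-0.84) and EIF2AK1 (-0.56), which encode the eIF2 kinases PKR and HRI, fell. Of the 8 probe sets of EIF2AK1, 5 were lower and 1 higher. EEF2K, whose product inactivates eEF2 by phosphorylation, was at -0.90, -0.90 and -0.91 in MAP30 arrays, against 0.85, 0.88 and 0.82 in control arrays, 3.37-fold lower.

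Of 19 genes for partners at the mRNA ends and in initiation 7 rose and 8 fell, with a median of -0.032. Among all genes 26.9% were higher and 30.6% lower. Centred on hybridization controls, 4 of the 19 were higher and 12 lower, against 17% and 63.7% of all genes. Centred on poly-A controls, 10 were higher and 5 lower, against 49.1% and 20.7%. PDCD4, an inhibitor of the eIF4A helicase, was at -0.51, -0.52 and -0.43 in MAP30 arrays, against 0.47, 0.44 and 0.46 in control arrays, and was 1.92-fold lower. LARP1 (-0.73), the binder of TOP starts, and DENR (-0.41), a reinitiation factor, fell. DHX29 (0.58), a helicase for structured leaders, LARP4 (0.57) and BZW2 (0.43), a mimic of eIF5, rose. PABPC1, the poly(A)-binding protein, passed with a change of -0.12 and stood at 0.045 with poly-A-control centring. Of 14 genes for termination, recycling and modification of factors 6 were higher and 4 lower, against 26.9% and 30.6% of all genes. Centred on hybridization controls, 4 were higher and 8 lower, against 17% and 63.7%. Centred on poly-A controls, 9 were higher and 4 lower, against 49.1% and 20.7%. The release factor gene ETF1 (0.43) rose and its partner GSPT1 (-0.62) fell. Of the enzymes that make hypusine on eIF5A, DHPS (-0.50) fell and DOHH (0.50) rose. DPH5 (0.57) rose and DPH6 (-0.40) was lower in the mean, both of which make the diphthamide of eEF2. Of the 3 probe sets of DPH6, 1 was higher and 1 lower.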

How the data were processed

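The authors deposited log2 expression values per probe set from biotin-labelled RNA amplified from the 3' end, per the labels' protocols; RMA and MAS5 are named without a role in the submitters' processing notes. No source states the logarithm's base, taken here as 2. The median of each of the 49395 probe sets over the 6 arrays is 0 within 5e-07, so levels were removed. Probe sets were named through the platform annotation: 44988 had 1 gene symbol, 1832 several, 2473 none and 102 were controls. No genome build goes with these values; printed sequences are RefSeq's.

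Gene values were means over probe sets with 1 symbol (18132 genes). The groups were tested with limma 3.58.1 in R 4.3.3 (MAP30 minus control; lmFit and eBayes, two-sided, Benjamini-Hochberg over all genes, adjusted p under 0.05), tested on simulated data. No block was used: deviations of same-numbered arrays correlated at -0.04, 0.07 and 0.01. The variance trend and the filter on dim genes were not run, since they need levels. Tables and figures used Python 3.11.15, pandas 2.3.3, numpy 2.4.6 and matplotlib 3.10.9. Members and lists were chosen with earlier results of these data known. Arrays are named in full for the 4 called factors with the largest change in each role group, for a fixed set of factors and for a few regulators; from other lists up to 6 called genes were named. A stricter threshold of 0.01 was added after seeing the data.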

Additional observations from a re-analysis of the deposited data

How the results depend on the processing

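The counts of factors higher and lower with MAP30 moved with the array scaling and with a fold threshold. With hybridization-control centring 13 of the 56 factors were higher and 33 lower, against 17% and 63.7% of all genes. Under it 7 of the eIF3 genes were lower and 1 elongation factor higher. With poly-A-control centring 30 factors were higher and 15 lower, against 49.1% and 20.7% of all genes. Under it 5 eIF2 and eIF2B genes and 8 eIF3 genes were higher, 0 eIF3 genes lower and 1 elongation factor lower. The spike-in sets moved in opposite directions, and the cause was not tested. A further 1.5-fold threshold left 9 factors higher and 4 lower: 0 eIF2 and eIF2B genes lower, 3 eIF3 genes higher and 0 lower, 1 eIF4 gene higher and 3 lower, and 1 elongation factor higher and 0 lower. At an adjusted p under 0.01, 18 were higher and 18 lower. Leaving out 1 array gave 19 to 20 higher and 18 to 20 lower. The replicate block gave 19 higher and 18 lower; the samples share only a number, and not every array correlated best with its own number. Median values over probe sets, median centring, quantile normalization, robust eBayes and a restriction to the more specific probe classes (_at, _a_at) kept these counts within 1.5 times. Leaving aside the fold and stricter p thresholds, 28 of the 42 calls held under all of these settings in which the factor was measured. Under all but the spike-in centrings 36 held. The called factors EIF3I, EEF1G and EEF1B2 have no probe set of class _at or _a_at, so the class restriction could not test them. EIF3I is counted in the 28 and, with EEF1G, in the 36. With hybridization-control centring the sign turned for EEF1B2 (-0.11), EIF1AY (-0.12), EIF2B3 (-0.11), EIF2B4 (-0.14), EIF2S1 (-0.14), EIF3H (-0.18), EIF4ENIF1 (-0.19), EIF4G2 (-0.0045), EIF5A2 (-0.021), EIF5AL1 (-0.14), EIF5B (-0.090) and EIF6 (-0.013). With poly-A-control centring it turned for EEF1AKMT1 (0.11), EEF1D (0.085), EEF1G (0.039), EIF1AD (0.12), EIF2A (0.13), EIF2B1 (0.066), EIF3E (0.092), EIF3F (0.16), EIF3K (0.057), EIF3M (0.15) and EIF4B (0.092). The class restriction turned EIF4EBP1 minus EIF4EBP2 to -0.15 and removed the calls of EIF5B, EIF3K and EIF2B3. It added a call of EEF1D at -0.30 (limma adjusted p = 0.00206). Genes without a probe set of these classes drop out of it. Under it the kinase list had 7 higher and 4 lower, the mRNA-end list 5 and 5, and the mitochondrial list 4 and 3. The urothelial and carcinoma markers had 3 and 1, and the leukocyte markers 1 and 0.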

Other observations

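Mitochondria translate their own messages with a separate set of factors, and all 9 measured genes of this list passed, 4 higher and 5 lower. Their median log2 change was -0.14, and 57.5% of all genes were called. Centred on hybridization controls, 3 of the 9 were higher and 5 lower, against 17% and 63.7% of all genes. Centred on poly-A controls, 4 were higher and 4 lower, against 49.1% and 20.7%, so not all passed under either centring. MRRF, the ribosome recycling factor, was at 0.83, 0.82 and 0.87 in MAP30 arrays, against -0.89, -0.80 and -0.83 in control arrays, and rose 3.21-fold. The release factor gene MTRF1L (1.17) and the elongation factor gene GFM1 (0.47) rose. MTRFR, a rescue factor for stalled mitochondrial ribosomes, was at -0.42, -0.35 and -0.41 in MAP30 arrays, against 0.40, 0.41 and 0.35 in control arrays, and was 1.72-fold lower. TUFM (-0.47), the mitochondrial counterpart of eEF1A, and its exchange factor TSFM (-0.62) fell.

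The 23 probe sets that list a factor beside another gene were fitted with all others; 8 were higher, 5 lower and 10 did not pass. They cannot be assigned to 1 gene.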
